A study of Mus musculus with 12 samples.

Results

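A set of 8 genes of the insulin-like growth factor (IGF) system was followed in the early mouse heart: the ligand Igf1, the receptors Igf1r and Igf2r, and the binding proteins Igfbp2, Igfbp3, Igfbp4, Igfbp5 and Igfbp7. They were taken by gene symbol from the annotation of the array, and each was read from its brightest probe, averaged over the 12 arrays. They are 8 of the 19057 genes represented by a probe assigned to a single gene, and they hold 22 of 45281 probes.

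RNA came from 4 groups of mouse embryo tissue with 3 arrays each: the atrioventricular canal (AVC) at E10, the primary ventricle (LV) at E10, the AVC at E9 and the LV at E9. The AVC is the segment whose cushions form the mitral and tricuspid valves. No transgene, mutation or treatment is given for any group, and the sources used here do not give the strain, the number of embryos behind an array or whether replicates came from separate litters. The p-values therefore cover only the spread among these arrays, which could be technical.

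IGF1 and IGF2 are secreted growth factors that signal through IGF1R, a receptor tyrosine kinase coupled to the PI3K-AKT and MAPK pathways. IGF2R carries IGF2 to lysosomes and has no kinase activity. The IGFBPs bind the ligands outside the cell and can prolong their life, store them in matrix or keep them from the receptor, and proteases such as PAPP-A and HTRA1 cut the IGFBPs. IGFBP7 binds IGFs weakly and is best known from blood vessels. In the embryo, IGF2 signalling promotes growth of the ventricular wall.

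Values are background-subtracted probe intensities on a linear scale. Intensities of different probes cannot be set against each other, so each gene is compared only with itself. A log2 difference is the AVC minus the LV, or E10 minus E9. Each is given by the limma fit of the 4 groups, and calling needed an adjusted p below 0.05 over all 19057 genes. All 8 genes were above the background limit (the size of the most negative value of an array) on all 12 arrays.

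The arrays had the same mean intensity (386) and between 36.7% and 41.0% of probes above background. LV E10 replicate 1 lay closest to an LV E9 array (r = 0.969), against a mean of 0.933 to its own group. AVC E9 replicate 2 and AVC E10 replicate 1 were each other's closest array (r = 0.979). Calls of the 8 genes that change without AVC E9 replicate 2 and LV E10 replicate 1 are given both ways. Of 5 AVC myocardium markers, 4 were called higher in the AVC at E10 and 3 at E9, against 2.06% and 0.855% of all genes. The summed intensity of 7 cushion mesenchyme markers was 6429 to 7295 in AVC E10, 1048 to 1934 in LV E10, 4208 to 5760 in AVC E9 and 1053 to 1491 in LV E9. The labelled tissues were thus separated by their markers, and all 4 groups held erythroid, endothelial and muscle RNA. The summed intensity of 8 endoderm and liver bud markers was uneven within groups. It was 2760 in LV E10 replicate 1, against 544 and 107 in replicates 2 and 3. In AVC E9 replicate 2 it was 740, against 387 and 317, and in AVC E10 replicate 2 it was 1221, against 157 and 656. LV E9 had 162 to 467. The part of such tissue in the calls was not tested. In such pieces of tissue, fewer cells of a type and less RNA per cell cannot be told apart.

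The promoters of Igfbp7 and Igfbp5 are shown because these were the members that differed between the tissues. Each line is the 250 bases before the annotated start on the strand of the gene (RefSeq, GRCm38.p6), with every GGGCGG or its reverse complement in capitals. The Igfbp7 window is chr5:77408046-77408295 on the minus strand and the Igfbp5 window chr1:72874866-72875115 on the minus strand.
Igfbp7: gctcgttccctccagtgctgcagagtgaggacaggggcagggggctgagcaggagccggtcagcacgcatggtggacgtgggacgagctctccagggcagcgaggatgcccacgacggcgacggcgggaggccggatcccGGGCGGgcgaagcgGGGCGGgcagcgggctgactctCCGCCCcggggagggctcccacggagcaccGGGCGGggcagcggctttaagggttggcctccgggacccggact
Igfbp5: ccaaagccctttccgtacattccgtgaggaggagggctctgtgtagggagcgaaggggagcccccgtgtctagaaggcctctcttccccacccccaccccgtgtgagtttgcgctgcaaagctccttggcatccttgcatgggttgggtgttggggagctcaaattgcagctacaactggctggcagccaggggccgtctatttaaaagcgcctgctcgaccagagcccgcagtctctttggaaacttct

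The Igfbp7 window held 4 matches to the GC box letters GGGCGG, 3 of them on the strand of the gene, between 110 and 44 bases before the start, and 74.0% G and C. The Igfbp5 window held none and had 58.8% G and C. GGGCGG was found on either strand in 32.7% of 32851 promoter windows of the same length. The TATA box letters TATAAA (12.4% of windows) were absent from both and were found only in the window of Igfbp4, 28 bases before the start. The T-box site letters AGGTGTGA (1.12% of windows) were in none of the windows of the 8 genes. GGGCGG was also found for members not called between tissues. The window of Igf1r held 2 matches, that of Igf2r 3, and those of Igfbp2 3 and 0. Igfbp2 and Igfbp5 are neighbouring genes on chromosome 1, and Igfbp3 and Igfbp4 both lie on chromosome 11.

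Igfbp7 had the largest tissue difference of the 8 genes at both ages. Its intensity was 3631, 3192 and 4018 in AVC E10, against 489, 690 and 785 in LV E10. At E9 it was 1267, 1920 and 763 in the AVC, against 221, 173 and 169 in the LV. No AVC array overlapped an LV array of its own age, and the lowest AVC E9 array lay just below the highest LV E10 array.

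At E10 Igfbp7 was 5.60-fold higher in the AVC (95% interval 3.38 to 9.27, log2 difference 2.49 ± 0.32 SE, adjusted p = 0.0107). At E9 it was 6.61-fold higher (interval 3.99 to 10.9, log2 difference 2.73 ± 0.32 SE, adjusted p = 0.0134). The study placed Igfbp7 among AVC genes using these E9 samples, so its E9 difference is not independent evidence. Among fits that left out 1 array, the call at E10 was lost without AVC E10 replicate 3 (adjusted p = 0.0511), and the E9 call held on leaving out each array in turn but not when only the E9 groups were fitted (adjusted p = 0.101). The tissue difference of Igfbp7 did not detectably change with age (interaction -0.24, interval -1.27 to 0.79, adjusted p = 1). The contrast over both ages together includes the same E9 arrays and is likewise not independent of the study's choice. In it Igfbp7 was 6.09-fold higher in the AVC (adjusted p = 0.00109), and it remained called in all 21 alternative fits. Among these, averaging it with its 4 dim probes lowered the log2 difference to 0.52, and to 0.50 at E10 and 0.55 at E9.

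Igfbp7 was also higher at E10 than at E9, in both tissues. In the LV the rise was 3.46-fold (interval 2.09 to 5.72, adjusted p = 0.0360), and the E10 and E9 arrays did not overlap. In the AVC the E10 mean was 3614 ± 414 and the E9 mean 1317 ± 580 (SD, n = 3 each), again without overlap, and the log2 difference of 1.55 was not called (adjusted p = 0.0784). Without AVC E9 replicate 2 and LV E10 replicate 1 it was 1.87 and was called (adjusted p = 0.0153). That fit called 1240 of the 19057 genes with age in the AVC, against 105 with all arrays kept. The rise in the LV was lost on leaving out any 1 of 8 arrays: AVC E9 replicate 1, any LV E9 array, AVC E10 replicates 2 and 3, and LV E10 replicates 2 and 3 (adjusted p 0.0517 to 0.138), and when only the LV groups were fitted (adjusted p = 0.0730). Epicardial markers moved between these ages too, with 2 of 4 called higher in the LV and 0 of 4 in the AVC. Of all genes, 2.37% and 0.551% were called in either direction. All 4 markers were higher at E10 in each tissue, by a median log2 difference of 3.54 in the LV and 2.99 in the AVC. Their summed intensity was 2149 to 5732 in LV E10 and 174 to 515 in LV E9, and 3731 to 4849 in AVC E10 and 487 to 677 in AVC E9. The sum of 6 endothelial markers was 2502 to 2748 in LV E10 and 1756 to 1984 in LV E9, and 3446 to 4093 in AVC E10 and 1931 to 2666 in AVC E9. At E10 this sum was thus also higher in every AVC array than in every LV array. The mean log2 value of the same markers overlapped there, at 7.50 to 8.35 in the AVC and 7.80 to 7.96 in the LV. The AVC was higher in 4 of the 6, with a median log2 difference of 0.27. Of the 6 markers 1 was called higher there, as were 2.06% of all genes. The part of either cell type in the Igfbp7 values was not tested.

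**Figure D1:**
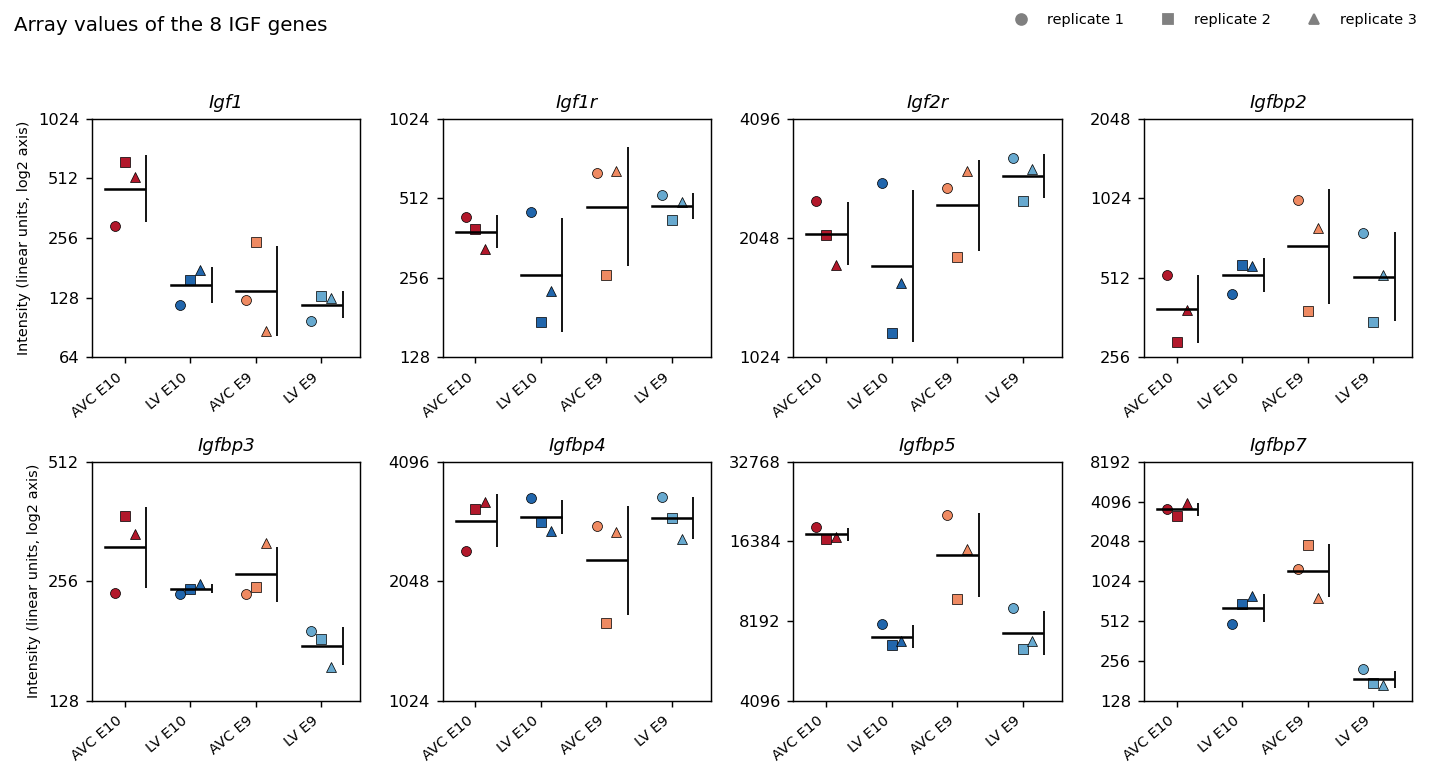
Intensity of each of the 8 genes on every array (linear units on a log2 axis), by group from AVC E10 to LV E9. Points are arrays, with a marker shape per replicate number, horizontal lines are geometric means and vertical lines 1 SD of the log2 values. The AVC points of Igfbp7 and Igfbp5 sit above the LV points of the same age, while those of Igf2r and Igfbp4 overlap.

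Igfbp5, a matrix-bound binding protein, was the other member called between tissues. It had 18613, 16746 and 17036 in AVC E10, against 8009, 6623 and 6905 in LV E10. E9 values were 20551, 9901 and 15279 in the AVC, against 9196, 6402 and 6880 in the LV. Every AVC array was above every LV array, with AVC E9 replicate 2 the closest to the LV.

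At E10 Igfbp5 was 2.44-fold higher in the AVC (log2 difference 1.29 ± 0.25 SE, interval 0.72 to 1.85, adjusted p = 0.0388). At E9 its log2 difference of 0.98 (interval 0.42 to 1.54) was not called (adjusted p = 0.129), and without AVC E9 replicate 2 it was 1.26 and was called (adjusted p = 0.0408). The difference between the ages themselves was 0.31 and was not called (adjusted p = 0.958). Over both ages Igfbp5 was 2.19-fold higher in the AVC (adjusted p = 0.00926), and this was called in all 21 alternative fits. The E10 call alone was less stable: it was lost on leaving out AVC E9 replicate 3, LV E9 replicate 2 or 3, any AVC E10 array, or LV E10 replicate 2 or 3 (adjusted p 0.0571 to 0.128), and with quantile normalisation (adjusted p = 0.0821). With age Igfbp5 differed little, by 0.26 in the AVC (adjusted p = 0.794) and by -0.05 in the LV (adjusted p = 1, interval -0.61 to 0.51).

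These were the members that passed the test. At E10 the AVC was higher in 2 of 8 (Igfbp5 and Igfbp7) and lower in 0, where 2.06% of all genes were called higher and 0.241% lower. At E9 it was higher in 1 of 8 (Igfbp7) and lower in 0, against 0.855% and 0.168% of all genes. Over both ages it was higher in 2 of 8 and lower in 0, against 4.79% and 0.682% of all genes. Among the 9931 genes above background in a group, which include the 8, 361 were called higher and 33 lower at E10. For these genes the counts were 151 and 24 at E9, and 843 and 103 over both ages. With age, 1 of 8 was called in the LV (Igfbp7, higher at E10), against 2.37% of all genes called in either direction. In the AVC 0 of the 8 were called with age, against 0.551% of all genes, and 2 of the 8 (Igf1 and Igfbp7) had an unadjusted p under 0.05 there, as did 12.5% of all genes. The interaction called 0 of the 8 and 0.0315% of all genes, and 1 member, Igf1, had an unadjusted p under 0.05, as did 4.71% of all genes.

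The median tissue difference of the 8 genes was 0.45 at E10 and 0.31 at E9. Over the 9931 genes above background in a group it was 0.18 at E10 and 0.08 at E9. Scaling the arrays to their 75th percentile instead gave -0.07 at both ages for those 9931 genes, and the genes called at E10 then split into 148 higher and 135 lower, where the deposited scaling gave 392 and 46. Igfbp5 and Igfbp7 stayed higher in the AVC at both ages under each scaling.

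**Figure D2:**
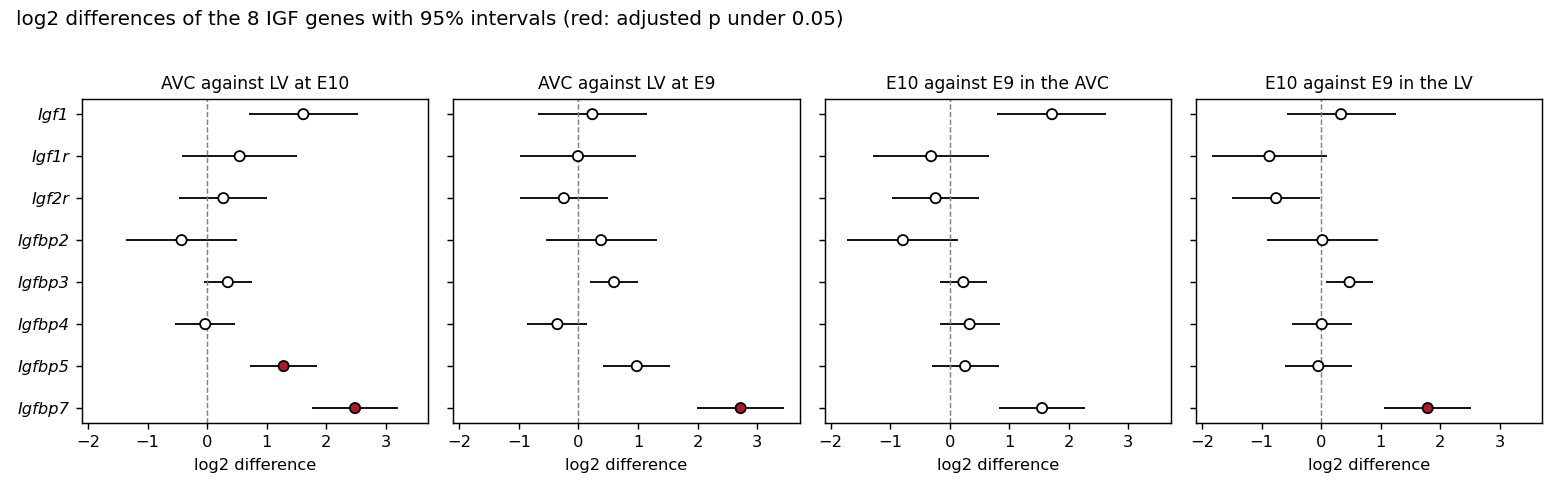
Log2 differences of the 8 genes with 95% intervals (horizontal axis) for the AVC against the LV at E10 and at E9 and for E10 against E9 in each tissue. Red marks an adjusted p under 0.05, which holds for Igfbp7 in 3 of these contrasts and for Igfbp5 in 1.

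Igf1, the ligand, was highest in the canal at E10. It had 295, 616 and 518 in AVC E10, against 118, 157 and 176 in LV E10. Its E9 values were 125, 244 and 87.2 in the AVC, against 98.2, 131 and 127 in the LV. All AVC E10 arrays were above every other array, and the other 3 groups overlapped.

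Igf1 was 3.07-fold higher in the AVC at E10 (interval 1.63 to 5.79), which was not called (adjusted p = 0.0900). At E9 its log2 difference was 0.23 (adjusted p = 0.989), and -0.18 without AVC E9 replicate 2 (adjusted p = 1). In the AVC it was 3.29-fold higher at E10 than at E9 (interval 1.74 to 6.20, adjusted p = 0.109), and in the LV 1.26-fold higher (adjusted p = 0.735). The interaction was 1.38 with an interval of 0.09 to 2.68 and an unadjusted p of 0.0390 (adjusted p = 0.937). Without AVC E9 replicate 2, the highest array of its group, the E10 tissue difference of 1.62 was called (adjusted p = 0.0418). Without LV E10 replicate 1 as well it was 1.45 (adjusted p = 0.0499), and the rise with age in the AVC was 2.13 (adjusted p = 0.0238). That fit called 1604 of the 19057 genes between tissues at E10 and 1240 with age in the AVC. With all arrays kept and values under the background limit set to that limit, both differences were also called. The adjusted p was 0.0245 between tissues at E10 and 0.0240 with age in the AVC. Over all genes that setting called 735 and 497, against 438 and 105 in the main fit. A second Igf1 probe, above background on all 12 arrays, gave log2 differences of 1.75 between tissues at E10 and 1.89 with age in the AVC.

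Neither receptor was called in any of the 6 contrasts. Igf1r, the signalling receptor, had 435, 393 and 329 in AVC E10, against 456, 174 and 227 in LV E10. At E9 there were intensities of 638, 261 and 648 in the AVC, against 525, 423 and 496 in the LV. The groups overlapped in both tissues and at both ages. The tissue difference was 0.55 at E10 (adjusted p = 0.650) and -0.01 at E9 (adjusted p = 1, interval -0.98 to 0.96).

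Igf1r in the LV was -0.87 at E10 relative to E9 on the log2 scale (interval -1.84 to 0.10, adjusted p = 0.314). LV E10 replicate 1 was the high array there and AVC E9 replicate 2 the low array of the canal. Without both, Igf1r was -1.27 with age in the LV (adjusted p = 0.00399) and 0.95 between the AVC and the LV at E10 (adjusted p = 0.0222). Over both ages its tissue difference was 0.27 (adjusted p = 0.720), and 0.69 without both arrays (adjusted p = 0.0164). At E9 it was then 0.42 (adjusted p = 0.298). This alternative was chosen after the arrays were examined. It called 3652 of the 19057 genes with age in the LV, against 452 with all arrays kept. Between tissues it called 1604 at E10, against 438, and 2170 over both ages, against 1042.

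Igf2r, which clears IGF2 and is imprinted in the mouse, had 2538, 2082 and 1755 in AVC E10, against 2814, 1179 and 1582 in LV E10. At E9 it had 2738, 1835 and 3031 in the AVC, against 3255, 2538 and 3068 in the LV. The tissues overlapped at both ages, with differences of 0.27 at E10 (adjusted p = 0.830) and -0.24 at E9 (adjusted p = 0.924). With age in the LV the log2 difference was -0.76 (interval -1.49 to -0.02, adjusted p = 0.243), and without LV E10 replicate 1 it was -1.10 and was called (adjusted p = 0.0315). Without that array 2630 of the 19057 genes were called with age in the LV. Igf1r and Igf2r followed each other over the 12 arrays (Pearson r = 0.941), a description over arrays that share tissue, age and array quality.

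The other binding proteins were not called in any contrast. Igfbp3, a main carrier of IGFs in blood, had 240, 375 and 337 in AVC E10, against 238, 245 and 251 in LV E10. At E9 it had 238, 248 and 320 in the AVC, against 191, 183 and 156 in the LV. The tissues overlapped at E10 and did not at E9. The difference was 0.35 at E10 (adjusted p = 0.447), 0.60 ± 0.17 SE at E9 (adjusted p = 0.193) and 0.47 over both ages (interval 0.19 to 0.76, adjusted p = 0.0681). Without AVC E10 replicate 1 the last was 0.57 and was called (adjusted p = 0.0170). In the LV Igfbp3 did not overlap between E10 and E9, with a log2 difference of 0.48 (adjusted p = 0.179).

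Igfbp2, a binding protein of many embryonic epithelia, had 525, 293 and 387 in AVC E10, against 444, 574 and 568 in LV E10. The E9 values were 1006, 384 and 793 in the AVC, against 755, 349 and 527 in the LV. The tissues overlapped at both ages, and the differences had opposite signs, -0.43 at E10 (adjusted p = 0.745) and 0.38 at E9 (adjusted p = 0.861), or 0.79 at E9 without AVC E9 replicate 2 (adjusted p = 0.484). In the AVC the difference with age was -0.79 (interval -1.72 to 0.14, adjusted p = 0.503).

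Igfbp4, a substrate of PAPP-A, had overlapping values in all 4 groups. It averaged 2933 ± 428 in AVC E10, 2984 ± 307 in LV E10, 2384 ± 674 in AVC E9 and 2969 ± 366 in LV E9 (SD, n = 3 each). The tissue difference was -0.03 at E10 (interval -0.53 to 0.47, adjusted p = 1) and -0.35 at E9 (adjusted p = 0.675). AVC E9 replicate 2, at 1608, was the lowest of the 12 arrays.

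A further 14 probes carry the symbols of these genes, and 9 exceeded background on each of the 12 arrays. Both further Igfbp5 probes gave higher AVC values, by 1.24 and 1.39 at E10 and by 0.88 and 1.21 at E9. For Igfbp2 the other probe gave -0.46 at E10 and 0.28 at E9, and for Igfbp3 0.11 and 0.43. For Igf1r 2 further probes gave 0.50 and 0.13 between tissues at E10, and 0.09 and -0.15 at E9. Over both ages they gave 0.29 and -0.01, and with age in the LV -0.79 and -1.17. Another Igfbp4 probe gave 0.12 at E10, opposite in sign to the first. With age it gave 0.66 in the AVC and 0.44 in the LV, neither called over all probes (adjusted p = 0.126 and 0.184), where the first gave 0.33 and 0.01. The second Igf2r probe gave 0.10 at E9, again opposite in sign to the first. The remaining 5 probes, 4 of Igfbp7 and 1 of Igf1r, were not above background on any array. The Igfbp7 result therefore rests on 1 probe.

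**Figure D3:**
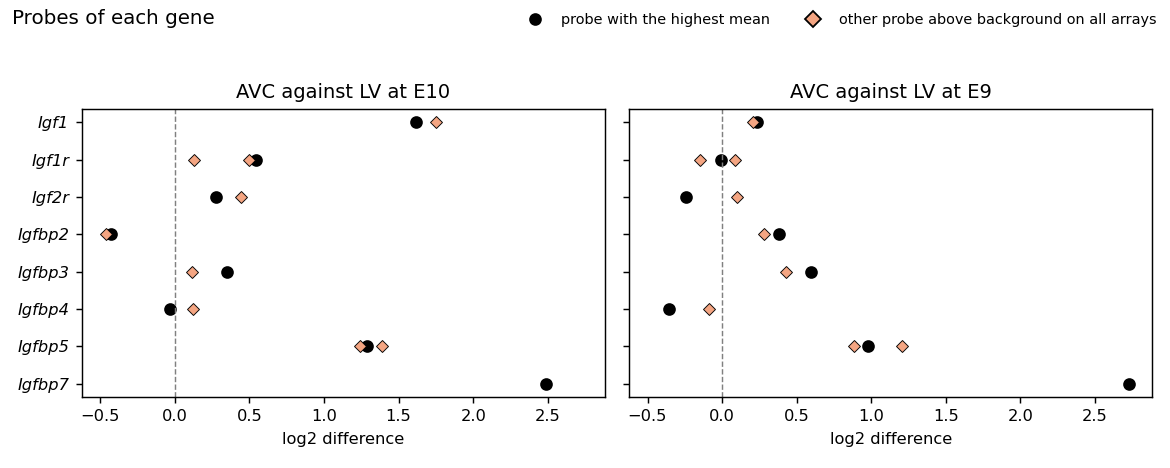
Log2 difference of the AVC against the LV for each probe of the 8 genes, at E10 and at E9. The 3 Igfbp5 probes lie between 1.24 and 1.39 at E10, and both Igf1 probes lie at 1.62 and 1.75 there.

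The rest of the pathway was read from 27 measured genes of a list of 31 ligands, receptors, proteases, substrates and downstream kinases, 19 of them above background in a group. Of the 27, the AVC was called higher for 1 and lower for 0 at E10, and for 0 and 0 at E9, where 5 and 3 had an unadjusted p under 0.05, a level reached by 13.9% and 11.5% of all genes. Over both ages 2 were higher and 1 lower, against 4.79% and 0.682% of all genes. The called shares of all genes were 2.06% higher and 0.241% lower at E10, and 0.855% and 0.168% at E9. With age 0 were called in either tissue, with an unadjusted p under 0.05 in 5 in the AVC and 3 in the LV, against 12.5% and 19.6% of all genes. Calls with age made up 0.551% of all genes in the AVC and 2.37% in the LV. The median difference of the 27 was 0.23 at E10 and 0.03 at E9.

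Htra1, a serine protease that cleaves IGFBPs including IGFBP5, was the pathway gene called at E10. It had 494, 443 and 447 in AVC E10, against 74.3, 114 and 91.1 in LV E10. At E9 it had 75.9, 205 and 77.1 in the AVC, against 40.6, 41.8 and 26.1 in the LV, where 1 array was not above background. The AVC was above the LV at each age without overlap. Htra1 was 5.02-fold higher in the AVC at E10 (interval 2.74 to 9.18, adjusted p = 0.0237) and 3.88-fold over both ages (adjusted p = 0.00595). The E10 call was lost without any 1 AVC E10 array or LV E10 replicate 2 or 3 (adjusted p 0.0587 to 0.0893) and with quantile normalisation (adjusted p = 0.0791). At E10 against E9 in the AVC Htra1 was 2.12 on the log2 scale (adjusted p = 0.0598), and without AVC E9 replicate 2 this was called (adjusted p = 0.00715).

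Pappa, the protease of IGFBP4 and IGFBP5, had 88.5, 79.2 and 71.0 in AVC E10, against 56.5, 14.9 and 25.8 in LV E10. Pappa at E9 had 91.0, 67.6 and 76.4 in the AVC, against 36.4, 32.3 and 33.1 in the LV. No AVC array was as low as an LV array, although 1 LV E10 array was not above background. Over both ages Pappa was 2.55-fold higher in the AVC (adjusted p = 0.0304). That call was lost on leaving out any 1 array other than AVC E9 replicate 2 and LV E10 replicates 1 and 2 (adjusted p 0.0597 to 0.0812). Without LV E10 replicate 1 Pappa was called higher in the AVC at E10 (adjusted p = 0.00790) and at E9 (adjusted p = 0.0344).

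Igfbpl1, a relative of the binding proteins, ran the other way, with 290, 118 and 133 in AVC E10, against 429, 433 and 574 in LV E10. At E9 it had 298, 180 and 257 in the AVC, against 505, 302 and 357 in the LV. Every LV array was above every AVC array, and over both ages the AVC fell by 1.09 on the log2 scale (adjusted p = 0.0471). The call was lost on leaving out any array but AVC E10 replicate 1 (adjusted p 0.0625 to 0.118). It was also lost with all probes averaged (adjusted p = 0.192) and with values under 16 set to 16 (adjusted p = 0.0526). At E10 alone the difference of -1.52 was not called (adjusted p = 0.0801). It was called there with quantile normalisation (adjusted p = 0.0461) and with scaling to the 75th percentile (adjusted p = 0.0457). Stc1, an inhibitor of PAPP-A named here after its values were seen, was -0.92 over both ages (adjusted p = 0.0508).

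Igf2, the ligand cleared by Igf2r, was bright in every group. It averaged 25836 ± 5845 in AVC E10, 31786 ± 8067 in LV E10, 26874 ± 4412 in AVC E9 and 34794 ± 2590 in LV E9 (SD, n = 3 each). The AVC and LV arrays overlapped at E10, and at E9 all 3 AVC arrays lay below the LV arrays. The difference of -0.34 over both ages (interval -0.69 to 0.02) was not called (adjusted p = 0.310).

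**Figure D4:**
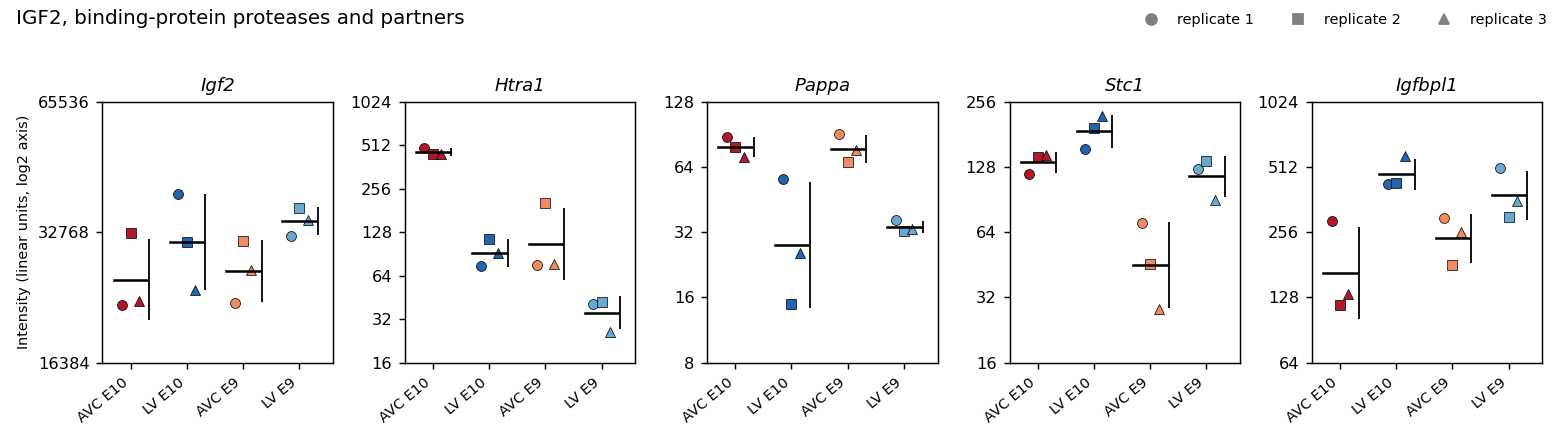
Intensity of Igf2, Htra1, Pappa, Stc1 and Igfbpl1 on every array (linear units on a log2 axis), drawn as for the 8 genes. Htra1 lies between 443 and 494 in AVC E10, above the other 9 arrays, and Igf2 overlaps between the tissues at E10.

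The genes most like Igfbp7 over the 12 arrays, among 9930 compared, were Ncam1 (Pearson r = 0.988), 2610035D17Rik (0.987) and Sox4 (0.983). Those most like Igfbp5 were Ppm1l (0.972), Lhfpl2 (0.971) and Dhx57 (0.966). Among the members, Igfbp7 was most like Igfbp3 (0.795) and Igf1 (0.792), and Igf1 and Igfbp2 ran opposite (-0.671). These correlations describe 12 arrays that share tissue and age and carry no test.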

How the data were processed

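Total RNA from dissected mouse AVC and primary ventricle was labelled with biotin and hybridised to Illumina mouse bead arrays, 12 in all, 3 per tissue and age. The deposited values are intensities on a linear scale, background-subtracted and scaled by the authors so that every array has the same mean, with 34.7% of values below 0. The authors' methods name GeneSpring, and how background was subtracted is not stated there. Values under 1 were set to 1 and log2 was taken. limma 3.58.1 in R 4.3.3 fitted 4 group means over all probes (lmFit, eBayes, two-sided), and p-values were adjusted by Benjamini-Hochberg over 19057 genes, 1 probe per gene. Figures were drawn with matplotlib 3.10.9. The script was tested on simulated data. No 2 of the 12 arrays were identical. Members and gene lists were chosen with earlier results of these data known. All members were named, with pathway genes called in any contrast, Igf2, and the 3 genes most correlated with each called member. Alternatives covered scaling, floors, filters, probe choice, the fit, a replicate block, the t-test in the methods and leaving out arrays. Promoters came from RefSeq (GRCm38.p6). The number of arrays limits the precision.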

Additional observations from a re-analysis of the deposited data

How the results depend on the processing

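With 3 arrays a group, the member calls moved with the arrays kept. The counts of members called were 1 at E9 and 2 at E10 between tissues, 2 over both ages, 0 with age in the AVC, 1 with age in the LV and 0 in the interaction. Leaving out 1 array gave 1 to 2 at E9, 0 to 3 at E10, 2 to 3 over both ages and 0 to 2 with age in the LV. Setting values under the background limit to that limit gave 2 at E9, 2 with age in the AVC and 4 over both ages. Over all genes this gave 370, 497 and 1334 calls, against 195, 105 and 1042 in the main fit. Between tissues at E10 the same setting added Igf1, with 735 of all genes called, against 438. Fitting only the compared groups gave 0 at E9 and 0 with age in the LV, and quantile normalisation gave 1 at E10. The methods' t-test after Benjamini-Hochberg gave 0 at E9, 0 at E10 and 0 with age in the LV, with Igfbp7 at an adjusted p of 0.0892 at E10 and 0.149 at E9, and at the study's thresholds in p and fold 1 at E10 and 0 with age in the LV. Leaving out AVC E9 replicate 2 and LV E10 replicate 1 together, chosen after seeing the data, gave 2 at E9, 4 at E10, 2 with age in the AVC and 3 with age in the LV. In the same contrasts that fit called 349, 1604, 1240 and 3652 of the 19057 genes, against 195, 438, 105 and 452 with all arrays kept. The cause of these moves was not tested.

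Averaging all probes of a gene, dim ones included, turned Igf1r to -0.00142 at E10 and -0.0532 over both ages, and neither was called in any direction. Of 48 pairs of a member and a contrast, 32 were never called, and 11 of these changed sign in some alternative. None of the 6 called pairs changed sign. Scaling to the 75th percentile moved the median tissue difference of the genes above background at E10 from 0.18 to -0.07.

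A replicate block left the member counts at 1 at E9 and 2 at E10. Among 12 same-numbered pairs of arrays, 5 had a correlation of deviations over 0.1 and 1 was under -0.1. Between the AVC and the LV at E9 these were 0.23, 0.09 and 0.28. Of the 12 arrays, 8 were closest in their deviations to an array of their own number in another group. These values do not settle whether the numbers pair the samples, and the main fit used no block. Over all genes, with age in the LV, the block gave 794 calls, against 452 without it, and leaving out LV E10 replicate 1 gave 2630. The fit without both arrays gave 1604 calls between tissues at E10, against 438.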
